A study of Mus musculus with 17 samples.

Results

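The cholesterol synthesis genes described here are Hmgcs1, Fdps, Fdft1, Sqle, Lss, Cyp51 and Dhcr7, which encode enzymes of the pathway, and Srebf2, which encodes the transcription factor SREBP-2 that controls it. They are 8 of the 21938 protein-coding genes of the GENCODE vM21 annotation of the mouse assembly mm10. They are a named list of pathway genes with no threshold on measured values in its rule, but it was chosen with earlier results of these data known. In each library, every H3.3 island that overlapped the gene body or the 5 kb on each side of it was assigned to the gene, and this stretch is called the window below. All 8 genes were found in the annotation, and none was left out by a filter.

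Cells build cholesterol from acetyl-CoA by way of mevalonate, farnesyl diphosphate, squalene and lanosterol, and the late enzymes turn lanosterol into cholesterol. When sterols run low, SREBP-2 leaves the endoplasmic reticulum, is then cut free from the membrane that carries it and moves to the nucleus. There it binds sterol regulatory elements near the starts of these genes, often together with the CCAAT-binding factor NF-Y. The plasma membranes of lens fibers are among the membranes richest in cholesterol, the lens makes cholesterol itself, and inherited loss of the human enzymes LSS or DHCR7 can go along with cataract.

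The data are 4 H3.3 ChIP-seq libraries, 2 biological replicates of lens epithelium and 2 of lens fibers, microdissected from newborn CD1 mice with no genotype or treatment named. The lens epithelium is the layer of dividing cells at the front of the lens, and lens fibers are the elongated cells that form from it and stop dividing. H3.3 is a variant of histone H3 that is deposited in chromatin outside DNA replication, largely at active genes. The sample titles give day 1 after birth, whereas the protocol in the labels gives P0.5 and 150 lenses per sample and the study's methods another number of lenses, so each library is a pool of many animals. In such pools, more cells with H3.3 at a gene and more H3.3 per cell cannot be told apart. Islands, regions where ChIP reads exceeded the background, were called by the authors in each library separately.

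The libraries differed in size before any gene was examined. Epithelium replicates 1 and 2 had 10389 and 14434 islands with 1331369 and 1430373 reads, and fiber replicates 1 and 2 had 27059 and 35940 islands with 5041885 and 5359085 reads. The islands covered 45.4 and 48.9 Mb in epithelium and 178 and 188 Mb in fibers. The sequencing depth of the libraries is not known, which leaves no basis for an interval or a limit of detection, and the absence of an island means that none was called. The 4 libraries can be split in 6 ways, so the smallest p of a two-sided exact permutation test is 0.33. A gene is therefore counted as higher in fibers where both fiber values lie above both epithelium values, and this count is set beside the share of all protein-coding genes that meet the same rule.

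The labelled tissues were checked against marker genes. Over 5 lens genes (Cryaa, Crybb1, Crybb3, Pax6 and Prox1), islands covered on average 59.8% and 70.5% of the window in epithelium and 98.4% and 97.8% in fibers. Over 6 genes of lens fibers (Bfsp1, Bfsp2, Mip, Gja3, Lim2 and Crygs) the means were 12.2% and 18.4% in epithelium and 96.6% and 95.5% in fibers, with all 6 genes higher in fibers. The 5 genes used for lens epithelium (Foxe3, Cdh1, Slc38a3, Pdgfra and Npnt) did not stand higher in epithelium, since the means were 13.6% and 31.1% in epithelium and 55.3% and 59.6% in fibers, 4 of the 5 were higher in fibers, and Npnt had no island in either epithelium library. H3.3 coverage at these genes therefore did not mark the epithelium libraries. Genes of other tissues were mostly low. The 3 retinal genes had mean coverage of 0% in both epithelium libraries and in fiber replicate 1 and 6.43% in fiber replicate 2, with Crx and Nrl at 0 in every library and Rcvrn, at 19.3% in fiber replicate 2, the sole gene with an island. The 5 genes of pigmented tissue had means of 0% in both epithelium libraries and 0.465% and 2.51% in fibers, with Tyr, Tyrp1 and Mlana at 0. The 5 genes of blood and endothelium had means of 0.865% and 1.74% in epithelium and 4.19% and 6.56% in fibers, with Hbb-bs and Ptprc at 0, Pecam1 the most covered by group means, at 3.29% in epithelium and 10.1% in fibers, and Hba-a1 the most covered in a single library, at 15.4% in fiber replicate 2. The part of these cells in the coverage of the cholesterol genes was not tested.

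H3.3 islands covered more of the cholesterol synthesis genes in lens fibers than in lens epithelium. Averaged over the 8 genes, the covered share of the window was 4.88% and 7.41% in the epithelium libraries and 36.9% and 43.3% in the fiber libraries, against 7.40%, 7.66%, 21.0% and 20.9% over all protein-coding genes. In epithelium replicates 1 and 2, 2 and 3 of the 8 genes had an island, and 7 and 8 had one in fiber replicates 1 and 2. Of all protein-coding genes, 30.4% and 35.4% had an island in the epithelium libraries and 54.5% and 60.7% in the fiber libraries. The covered share was higher in fibers for 7 of the 8 genes, and for the 8th, Cyp51, the groups overlapped. The same rule called 45.0% of all protein-coding genes higher in fibers and 0.670% lower. Among the 14147 protein-coding genes with an island in at least 1 library it called 69.8%, so most genes with any island followed the same direction.

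**Figure D1:**
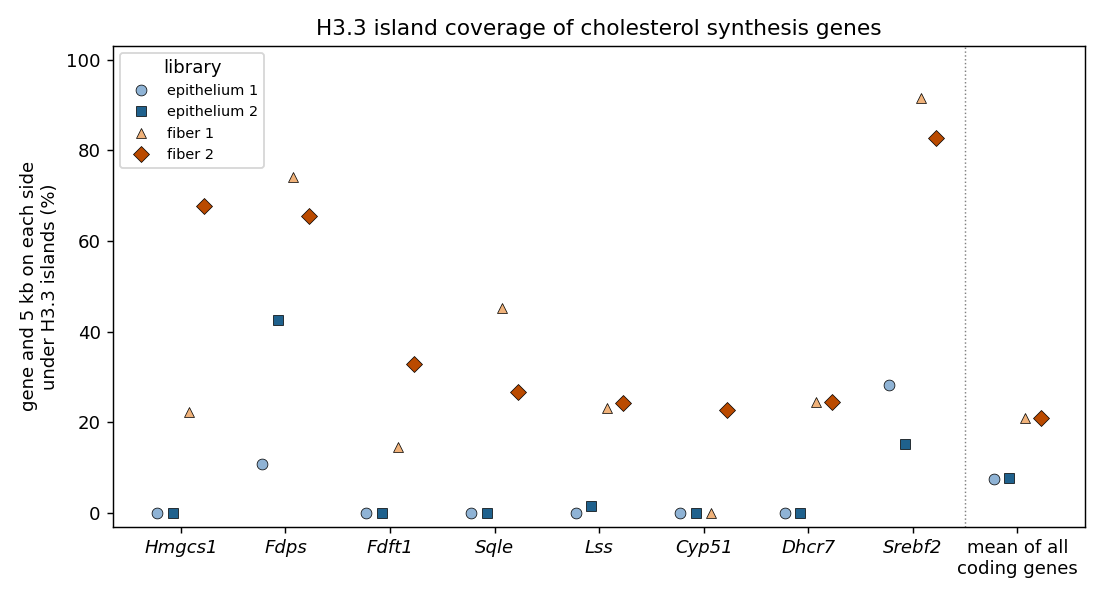
Share of each gene and its 5 kb flanks under H3.3 islands (vertical axis, percent) in the 4 libraries, 1 point per library, with the mean over all protein-coding genes at the right. Both fiber points lie above both epithelium points for 7 of the 8 genes, and Cyp51 has an island in fiber replicate 2 only.

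The size of the difference varied more than its direction. The mean over the 8 genes of fiber minus epithelium coverage was 33.9 percentage points, and it lay between 29.5 and 38.4 points over the 4 possible pairs of 1 fiber and 1 epithelium library. Single genes ranged from 11.3 points at Cyp51 to 65.4 points at Srebf2, with a median of 30.2 points. Over all protein-coding genes the mean difference was 13.4 points and the median 4.72 points, and over those with an island in at least 1 library 20.8 and 16.0 points. These counts depend on how many islands a library has. When the 10389 islands with the most reads per kb were taken from every library, 1 of the 8 genes, Srebf2, was still higher in fibers, against 15.6% of all protein-coding genes, and the mean difference was 11.4 points against 2.63 points. When the 10389 islands with the most reads were taken, 3 of the 8, Hmgcs1, Dhcr7 and Srebf2, were higher, against 21.4% of all protein-coding genes, and the mean difference was 17.0 points against 6.88 points.

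**Figure D2:**
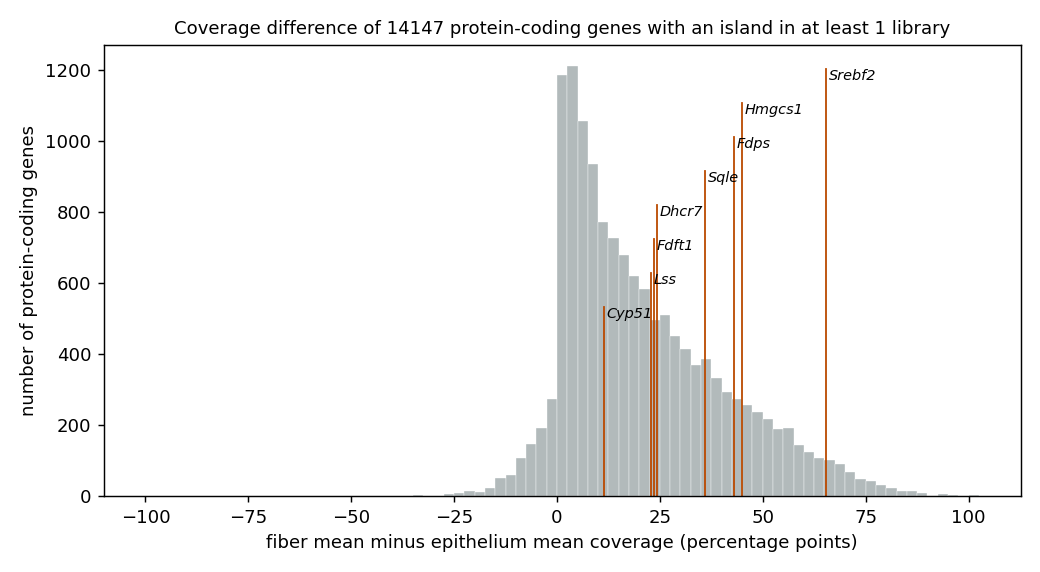
Histogram of the fiber mean minus the epithelium mean of the covered share (horizontal axis, percentage points) for the 14147 protein-coding genes with an island in at least 1 library (vertical axis, number of genes), with the 8 cholesterol genes as labelled lines whose heights carry no value. All 8 lines lie to the right of 0, between 11.3 points at Cyp51 and 65.4 points at Srebf2, within the range of the other genes.

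The first genes encode enzymes that lead from acetyl-CoA units to squalene. Hmgcs1 (ENSMUSG00000093930.2, chr13:119690379-119708260, plus strand) encodes the cytosolic synthase that makes HMG-CoA, the precursor of mevalonate. No island was called at Hmgcs1 in either epithelium library, and islands covered 22.2% of the window in fiber replicate 1 and 67.6% in fiber replicate 2. The fiber mean was 44.9% ± 32.1 (SD, n = 2), a wide spread that came from the number of islands. Fiber replicate 1 had a single island of 6200 bp and 177 reads from -2378 to 3821 bp relative to the start. Fiber replicate 2 had an island over the same start and 3 more across the body and beyond the end, the last reaching 23421 bp from the start. The body was thus marked at its start in both fiber libraries and farther along in only 1 of them.

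The promoter of Hmgcs1 is shown because it lay wholly under islands in both fiber libraries and under none in epithelium, and because it was the only promoter of these genes in the RefSeq table with a match to the sterol regulatory element searched. The sequence is from GRCm38.p6, chr13:119690101-119690400, plus strand, 250 bases before the RefSeq start and 50 from it on. Capitals mark matches on either strand to the SREBP element (TCACNCCAC), the NF-Y box (CCAAT, on the other strand ATTGG) and the GC box (GGGCGG, on the other strand CCGCCC).
Hmgcs1 promoter: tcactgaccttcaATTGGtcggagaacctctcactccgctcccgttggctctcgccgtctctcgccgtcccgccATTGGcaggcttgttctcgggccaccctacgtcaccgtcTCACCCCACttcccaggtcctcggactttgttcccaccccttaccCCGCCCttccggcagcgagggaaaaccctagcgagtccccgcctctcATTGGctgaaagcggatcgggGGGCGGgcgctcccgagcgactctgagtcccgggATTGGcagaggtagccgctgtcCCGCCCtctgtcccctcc
The SREBP element lay 137 to 129 bases before the start, and 4 NF-Y boxes and 3 GC boxes were matched. Of 32851 mouse promoters of this length in the table, 1.24% held the SREBP element, 37.4% an NF-Y box and 35.7% a GC box. A match is a description of letters and not a bound site. Only this form of the SREBP element was searched, so a promoter without a match may hold another form.

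Fdps (ENSMUSG00000059743.12, chr3:89093588-89101959, minus strand) encodes farnesyl diphosphate synthase, whose product feeds both sterols and protein prenylation. It was 1 of only 2 of the genes with an island in all 4 libraries. Coverage was 10.9% and 42.5% in epithelium and 74.1% and 65.4% in fibers, with the lower fiber value above the higher epithelium value. The difference between the means was 43.0 points, with 26.7% ± 22.4 in epithelium and 69.7% ± 6.16 in fibers (SD, n = 2 each). The epithelium islands lay at one end of the stretch covered in fibers. In epithelium the single islands ran from 8359 to 10358 bp and from 5559 to 14358 bp after the start of Fdps, over its 3′ end and the start of the neighbouring gene Rusc1, 8648 bp from that of Fdps. Fiber islands covered the whole of the epithelium-covered length within the window, except that those of replicate 2 covered 89.8% of it for epithelium replicate 2. The start of Rusc1 was under an island in all 4 libraries, whereas the outermost start of Fdps was under one in both fiber libraries and in neither epithelium library. Inner transcript starts of Fdps, annotated 5976 and 6280 bp from the outermost one, were under an island in epithelium replicate 2 and in both fiber libraries. Within the gene body alone, coverage was 0.155% and 33.6% in epithelium against 85.7% and 73.7% in fibers. Gm43738, an annotated protein-coding gene that starts 860 bp after Fdps on the same strand, overlaps it, and the island calls cannot be assigned to one of the pair.

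Fdft1 (ENSMUSG00000021273.10, chr14:63145150-63179578, minus strand) encodes squalene synthase, the first enzyme committed to sterols. It had no island in epithelium, and 14.52% and 32.9% of its window was covered in fiber replicates 1 and 2. The fiber mean was 23.7% ± 13.0 (SD, n = 2). Unlike the genes above, its start was under no island in any library. The fiber islands lay inside the gene, from 13978 to 16377 bp in replicate 1 and from 6378 to 15377 bp in replicate 2, and around its 3′ end. An inner transcript start annotated 14542 bp from the outermost one was under an island in both fiber libraries.

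The next genes encode enzymes that turn squalene into the first sterol. Sqle (ENSMUSG00000022351.14, chr15:59315077-59331192, plus strand) encodes squalene epoxidase, a rate-limiting enzyme of the pathway. Coverage was 0% in both epithelium libraries, 45.2% in fiber replicate 1 and 26.8% in fiber replicate 2, a fiber mean of 36.0% ± 13.0 (SD, n = 2). Islands covered the start in both fiber libraries, from -1876 to 2923 bp in replicate 1 and from -2076 to 523 bp in replicate 2. The fiber libraries differed within the gene body, with 38.0% covered in replicate 1 and 3.25% in replicate 2. Both had an island beyond the 3′ end.

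Lss (ENSMUSG00000033105.12, chr10:76531588-76557138, plus strand) encodes lanosterol synthase, which closes the ring system of the sterols. Coverage was 0% and 1.51% in epithelium and 23.1% and 24.2% in fibers. The fiber libraries differed little, with a mean of 23.6% ± 0.796 against 0.757% ± 1.07 in epithelium (SD, n = 2 each). In both fiber libraries 2 islands lay side by side over the start and the first part of the gene, reaching from -1187 to 7812 bp in replicate 1 and from -1587 to 7812 bp in replicate 2. The sole epithelium island, in replicate 2, began 30013 bp from the start, beyond the end of Lss, and lay over the start of the antisense gene 4930483K19Rik. Within the gene body the coverage was 0% in both epithelium libraries and 27.4% in both fiber libraries.

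The promoter of Lss is shown because fiber islands covered all of it in both replicates at a gene without an epithelium island in its body. It lies at chr10:76531355-76531654 (GRCm38.p6, plus strand), with capitals for the same motifs.
Lss promoter: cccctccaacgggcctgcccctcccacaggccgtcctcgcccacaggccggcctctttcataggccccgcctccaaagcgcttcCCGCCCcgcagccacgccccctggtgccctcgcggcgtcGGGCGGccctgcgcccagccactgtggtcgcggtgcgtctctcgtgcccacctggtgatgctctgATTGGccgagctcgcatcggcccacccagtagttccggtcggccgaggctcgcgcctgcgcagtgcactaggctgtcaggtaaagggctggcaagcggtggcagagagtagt
It held 1 NF-Y box, 62 to 58 bases before the start, and 2 GC boxes.

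The last enzymes act on lanosterol and its products. Cyp51 (ENSMUSG00000001467.5, chr5:4081145-4104746, minus strand) encodes the cytochrome P450 enzyme that removes a methyl group from lanosterol. It was the exception among the 8 genes, with coverage of 0% in both epithelium libraries and in fiber replicate 1, and 22.6% in fiber replicate 2. The groups overlapped at 0, and the fiber mean of 11.3% ± 16.0 (SD, n = 2) rested on 1 library. In that library, an island of 2800 bp with 102 reads lay over the start and another over the 3′ end. Without fiber replicate 1, Cyp51 also counted as higher in fibers, which made 8 of 8, while the share of all protein-coding genes called rose to 54.7%.

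Dhcr7 (ENSMUSG00000058454.15, chr7:143823145-143848410, plus strand) encodes the reductase of the last step to cholesterol. Coverage was 0% in both epithelium libraries and 24.4% in both fiber libraries. The fiber islands were in nearly the same place, from 6056 to 14655 bp after the outermost start in replicate 1 and, as a pair, from 6056 to 15455 bp in replicate 2. The outermost start was under no island in any library, and neither was the start of Nadsyn1, a gene on the other strand that starts at -296 bp. Starts of other Dhcr7 transcripts between 6481 and 7113 bp into the gene were under islands in both fiber libraries and in neither epithelium library.

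The promoter at the inner start of Dhcr7 is shown because the fiber islands covered it, at chr7:143829964-143830263 (GRCm38.p6, plus strand), while both outer promoters of the gene in the RefSeq table were uncovered in all 4 libraries.
Dhcr7 inner promoter: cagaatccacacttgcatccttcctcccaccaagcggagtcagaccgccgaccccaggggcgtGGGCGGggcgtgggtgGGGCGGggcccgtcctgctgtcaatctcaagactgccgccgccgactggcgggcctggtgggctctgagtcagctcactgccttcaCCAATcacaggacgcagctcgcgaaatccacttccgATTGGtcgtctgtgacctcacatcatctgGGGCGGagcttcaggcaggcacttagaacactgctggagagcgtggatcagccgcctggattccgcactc
It held 2 NF-Y boxes, 85 to 81 and 49 to 45 bases before the start, and 3 GC boxes. Neither of the outer promoters held an NF-Y box. One of them held the E box (CACGTG), which reads the same on both strands and was found in 7.15% of all promoters.

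**Figure D3:**
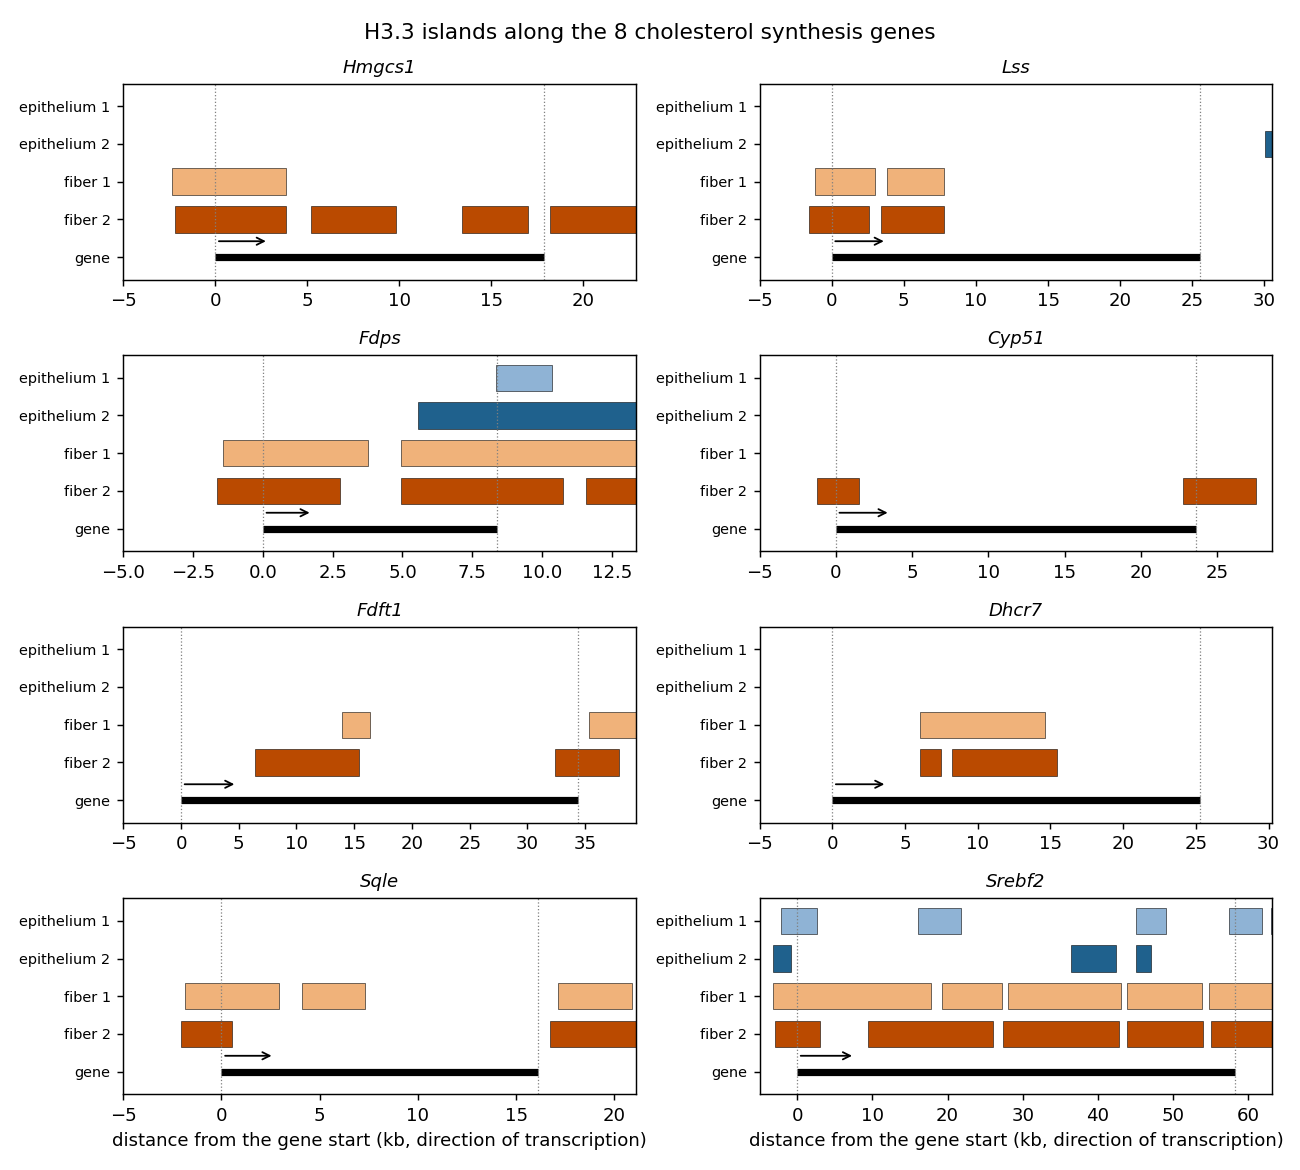
Islands along each of the 8 genes, with the distance from the outermost annotated start in kb in the direction of transcription on the horizontal axis, a row per library and the gene body as a black bar. Boxes are islands cut at the window edge, with fiber islands over the start of Hmgcs1, Fdps, Sqle, Lss and Srebf2 in both replicates and an epithelium island over the start of Srebf2 in replicate 1 alone.

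Srebf2 (ENSMUSG00000022463.8, chr15:82147181-82205379, plus strand) encodes SREBP-2, which is also a target of its own control. It was the longest of the 8 genes and the most covered in fibers. Coverage was 28.1% and 15.2% in epithelium and 91.5% and 82.7% in fibers, and the groups were far apart. The means were 21.7% ± 9.10 and 87.1% ± 6.22 (SD, n = 2 each), a difference of 65.4 points. In epithelium 5 and 3 islands were scattered along the gene, none longer than 6000 bp. In fibers each replicate had 5 islands spread over the whole gene, with a gap from 3019 to 9420 bp in replicate 2, and the longest measured 21000 bp in replicate 1 and 16600 bp in replicate 2. The start was under an island in epithelium replicate 1 and in both fiber libraries, while the nearest island of epithelium replicate 2 ended at -781 bp.

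Srebf2 also carries Mir33 (ENSMUSG00000065465.1, chr15:82198122-82198190) in an intron, 50941 bp from its start. The microRNA miR-33 is made from the same transcript and lowers cholesterol export by acting on Abca1. Its mature 5p strand is shown with the seed, bases 2 to 8, in capitals, beside the promoter of the host gene (GRCm38.p6, chr15:82147019-82147318, plus strand) with the motifs as above.
miR-33-5p: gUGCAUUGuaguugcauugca
Srebf2 promoter: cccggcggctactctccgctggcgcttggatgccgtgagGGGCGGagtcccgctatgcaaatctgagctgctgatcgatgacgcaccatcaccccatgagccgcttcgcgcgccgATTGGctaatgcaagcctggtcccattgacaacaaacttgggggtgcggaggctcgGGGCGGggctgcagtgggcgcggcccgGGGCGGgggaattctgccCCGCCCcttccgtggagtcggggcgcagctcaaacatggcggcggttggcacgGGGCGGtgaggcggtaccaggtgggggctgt
The whole of the Mir33 hairpin was under an island in both fiber libraries and no base of it in either epithelium library. The promoter of Srebf2 lay wholly under an island in epithelium replicate 1 and in both fiber libraries, and it was uncovered in epithelium replicate 2. It held 1 NF-Y box and 5 GC boxes. A stretch of it differs from the SREBP element searched in the last base alone and was not counted as a match. Cyp51 was the other gene with a promoter in the table, so that 5 of the 8 genes were matched there, with 7 promoters. Fdps, Fdft1 and Sqle were not among them.

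Island length and read density gave different pictures. The longest island at the gene was longer in both fiber libraries for 7 of the 8 genes, against 44.2% of all protein-coding genes and 68.5% of those with an island in at least 1 library. With 10389 islands from every library this count was 1 of 8 by reads per kb and 4 of 8 by read count, against 18.1% and 25.5% of all protein-coding genes. In fibers the longest island ranged from 4200 bp at Lss to 21000 bp at Srebf2 in replicate 1, leaving out Cyp51, and from 4400 bp at Lss to 16600 bp at Srebf2 in replicate 2. The library median was 3800 and 3000 bp in epithelium and 5200 and 4000 bp in fibers. Density, the reads of the overlapping islands per kb of their length, could be compared only at Fdps and Srebf2, which had islands in all 4 libraries. At Srebf2 it was 30.1 and 28.8 reads per kb in epithelium and 30.5 and 31.8 in fibers, higher in fibers by a small margin. This call was lost when the densest island alone was taken, at 33.2 and 36.5 reads per kb in epithelium and 35.5 in each fiber library, and also with islands of at least the median density or within 5 kb of the start. At Fdps it was 35.5 and 27.2 reads per kb in epithelium and 29.0 and 28.2 in fibers, and the groups overlapped. The count of 1 of 2 stood beside 30.8% of the 5246 protein-coding genes with islands in all 4 libraries that were denser in both fiber libraries and 16.3% that were less dense. The median density of all islands was 28.3 and 28.1 reads per kb in epithelium and 27.4 and 27.5 in fibers. Single islands at the cholesterol genes in fibers ran from 19.6 reads per kb, over the 3′ end of Cyp51, to 38.3, inside Fdft1.

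Coverage of these genes in fibers was highest around the gene start, as was the mean over the protein-coding genes of at least 4000 bp. The outermost annotated start was under an island in 1 and 0 of the 8 genes in epithelium and in 5 and 6 in fibers. Of all protein-coding genes, 12.4% and 14.6% had this start under an island in epithelium and 36.3% and 41.5% in fibers. For 4 of the 8 genes, Hmgcs1, Fdps, Sqle and Lss, the start was covered in both fiber libraries and in neither epithelium library, against 15.6% of all protein-coding genes and 24.1% of those with an island. Taking any annotated transcript start of a gene, in an alternative added after the data were seen, gave 6 of 8, with Fdft1 and Dhcr7 added, against 22.9% and 35.5%. When only islands of at least the median density of their library were kept, the count of outermost starts was 1 of 8, against 9.76% of all protein-coding genes. With 10389 islands from every library it was 0 of 8 by reads per kb and 1 of 8 by read count, against 4.28% and 4.47%. In 4 of the 8 genes, Hmgcs1, Fdft1, Sqle and Dhcr7, an island lay anywhere in the window in both fiber libraries and in neither epithelium library. This held for 15.2% of all protein-coding genes and 23.6% of those with an island.

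Within 1 kb of the start, the mean covered share of the 8 genes was 12.5% and 1.38% in epithelium and 62.5% and 72.0% in fibers. The same stretch had 11.4%, 13.2%, 36.2% and 41.6% over the 18695 protein-coding genes of at least 4000 bp. When the body beyond its first 1 kb was divided into 3 equal stretches, coverage in fibers was 53.7% and 46.7% in the one nearest the start, 32.9% and 37.0% in the middle and 23.8% and 35.4% in the one nearest the end. Over all genes these stretches had 22.1% and 21.7%, 17.9% and 17.2%, and 20.3% and 19.7% in fibers. In the 5 kb beyond the 3′ end, coverage of the 8 genes was 44.6% and 64.4% in fibers and 14.47% and 13.8% in epithelium. Over all genes it was 22.9% in each fiber library and 8.38% and 8.72% in epithelium. Beyond the 3′ end the coverage was uneven, with 100% and 84.0% at Fdps, 81.0% and 71.0% at Fdft1, 76.0% and 87.8% at Sqle and 100% in both fiber libraries at Srebf2, against 0% in both at Lss and Dhcr7. The replicates disagreed at Hmgcs1, with 0% and 93.2%, and at Cyp51, with 0% and 78.9%. In epithelium this zone was covered at Fdps, with 39.7% and 100%, at Srebf2, with 76.0% and 0%, and at Lss, with 0% and 10.8%. A neighbouring protein-coding gene reaches into this zone at Fdps (Rusc1), Fdft1 (Ctsb), Sqle (Washc5), Srebf2 (Shisa8), Hmgcs1 (Nim1k) and Cyp51 (Akap9). None does at Lss and Dhcr7. Island calls in this zone can therefore not be assigned to a cholesterol gene rather than to its neighbour. Upstream of the start, from 5 to 1 kb before it, fiber coverage was 15.8% and 17.9% at the 8 genes and 18.8% and 18.6% over all genes.

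**Figure D4:**
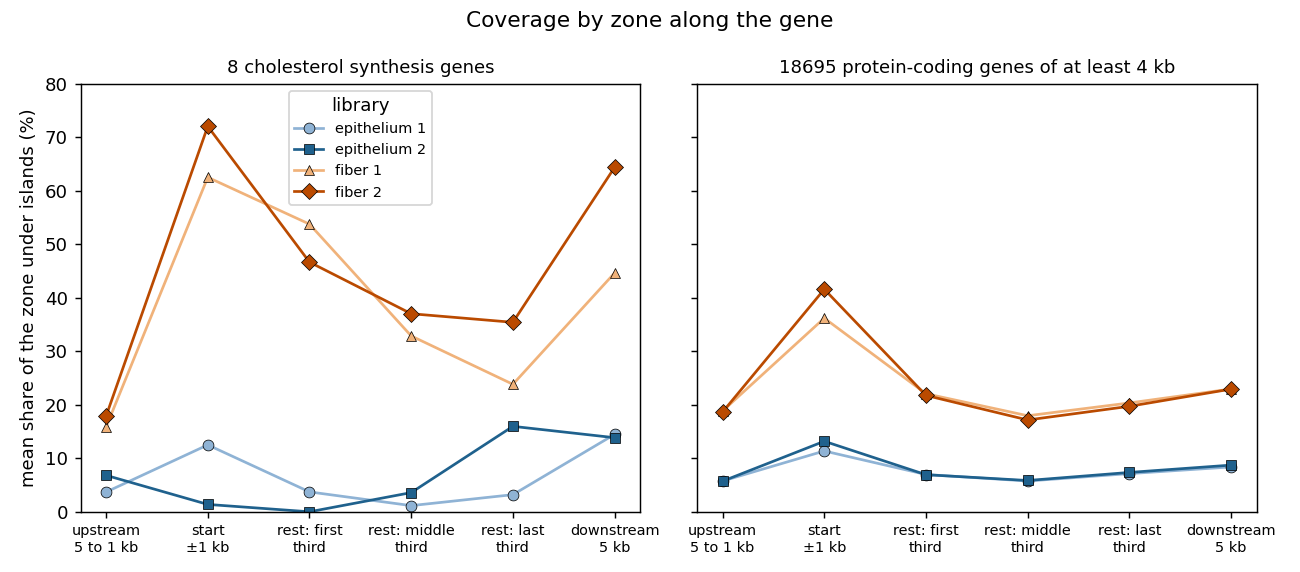
Mean share under islands (vertical axis, percent) of 6 zones along the gene (5 to 1 kb upstream, 1 kb on each side of the start, 3 equal stretches of the rest of the body and the 5 kb beyond the 3′ end) for the 8 cholesterol genes at the left and 18695 protein-coding genes at the right, 1 line per library. At the cholesterol genes the fiber lines peak at the start, at 62.5% and 72.0%, and are high again in the 5 kb beyond the 3′ end, while the upstream zone is close to that of all genes. Neighbouring protein-coding genes reach into the zone beyond the 3′ end at all of the 8 but Lss and Dhcr7. The fiber lines of the 18695 genes also peak at the start, at 36.2% and 41.6%.

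The replicates shared more covered length in fibers than in epithelium, where less was covered. Summed over the 8 windows, 97792 bp were under islands in both fiber replicates, which was 83.4% of the covered length of replicate 1 and 73.2% of that of replicate 2. In epithelium 5400 bp were shared, 25.5% of the covered length of replicate 1 and 28.8% of that of replicate 2. Of the length covered in epithelium replicate 1, 93.4% and 100% lay under islands of fiber replicates 1 and 2, and of that in epithelium replicate 2, 97.1% and 91.8% did. This rests on Fdps and Srebf2, since 5 of the genes had no epithelium coverage and none of the 538 bp covered at Lss in epithelium replicate 2 was under a fiber island. Stretches of 75 nt, the length of a read, that occur more than once in the assembly made up between 0.166% of the window at Lss and 3.82% at Cyp51, and 16.3% at Dhcr7, and their part in the missing calls was not tested.

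Another 27 genes of the pathway were described in the same way for context. Of these, 14 were higher in fibers and 0 lower, and the median difference was 14.7 points, against 45.0% higher and a median of 4.72 points for all protein-coding genes, and 69.8% higher and a median of 16.0 points for those with an island. Among 12 other enzymes, 5 were higher in fibers, with a median difference of 4.78 points. This is 5 of the 9 with an island in any library, beside 69.8% of all such genes. Pmvk, the phosphomevalonate kinase, showed the largest difference of these, with 0% and 10.6% coverage in epithelium and 51.8% and 36.2% in fibers. Acat2, which joins acetyl-CoA units at the head of the pathway, came next, with 0% and 9.33% in epithelium and 40.7% and 41.4% in fibers. Msmo1, a methyl sterol oxidase, had no island in epithelium and 24.4% and 24.2% in fibers. Idi1, Nsdhl and Ebp, which encode an isomerase of isopentenyl diphosphate, a sterol dehydrogenase and a sterol isomerase, had no island in any library, so the pathway was not covered from end to end. The mean coverage of the 12 enzymes was 12.7% and 15.7% in epithelium and 29.4% and 26.04% in fibers.

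Of 6 other genes of SREBP control, which are Srebf1 and genes of SREBP processing, 5 were higher in fibers, and the median difference was 31.6 points. All 6 have an island in at least 1 library, and the rule called 69.8% of such genes and 45.0% of all protein-coding genes, so no more is read from the count. Insig1, which holds SREBPs in the endoplasmic reticulum, had 34.7% and 17.3% in epithelium and 97.3% and 78.8% in fibers. Mbtps1, the protease of the first cut, had 5.69% and 33.1% in epithelium and 79.3% and 68.0% in fibers. Srebf1, the related factor that acts mainly on fatty acid genes, was already covered in epithelium, at 66.3% and 59.5%, and had 97.6% and 98.9% in fibers. The smallest differences were at Mbtps2, the protease of the next cut, with an island in fiber replicate 2 alone at 3.27%, at Insig2, with 0% in epithelium and 13.1% and 12.6% in fibers, and at Scap, the escort of SREBPs, with 2.84% and 4.54% in epithelium and 42.7% and 20.4% in fibers.

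Of 9 genes of uptake, export and the oxysterol response, 4 were higher in fibers, and the median difference was 14.7 points. All 9 have an island in at least 1 library, and their share lay near the 45.0% of all protein-coding genes and below the 69.8% of those with an island. Npc2, which moves cholesterol out of lysosomes, had 20.3% and 6.995% in epithelium and 46.9% and 31.5% in fibers. Nr1h3, the oxysterol receptor LXR alpha, had none in epithelium and 21.5% and 13.9% in fibers. Nr1h2, the related receptor LXR beta, had 32.1% and 44.6% in epithelium and 66.96% and 44.6% in fibers, and the groups overlapped. The smallest differences were at the exporter Abca1, with 0% and 3.02% in epithelium and 0% and 1.73% in fibers, at Mylip, a ubiquitin ligase induced by oxysterols, with 11.8% and 0% in epithelium and 16.2% and 0% in fibers, and at Scarb1, the receptor for high-density lipoprotein, with 31.8% and 18.9% in epithelium and 31.6% and 38.3% in fibers. In these 3 the groups overlapped.

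The genes whose coverage over the 4 libraries was most like the mean of the 8 cholesterol genes were, among the 27 other listed pathway genes, Acat2, Pmvk and Scap. Their mean absolute distance from it was 3.13, 7.53 and 8.41 percentage points.

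**Figure D5:**
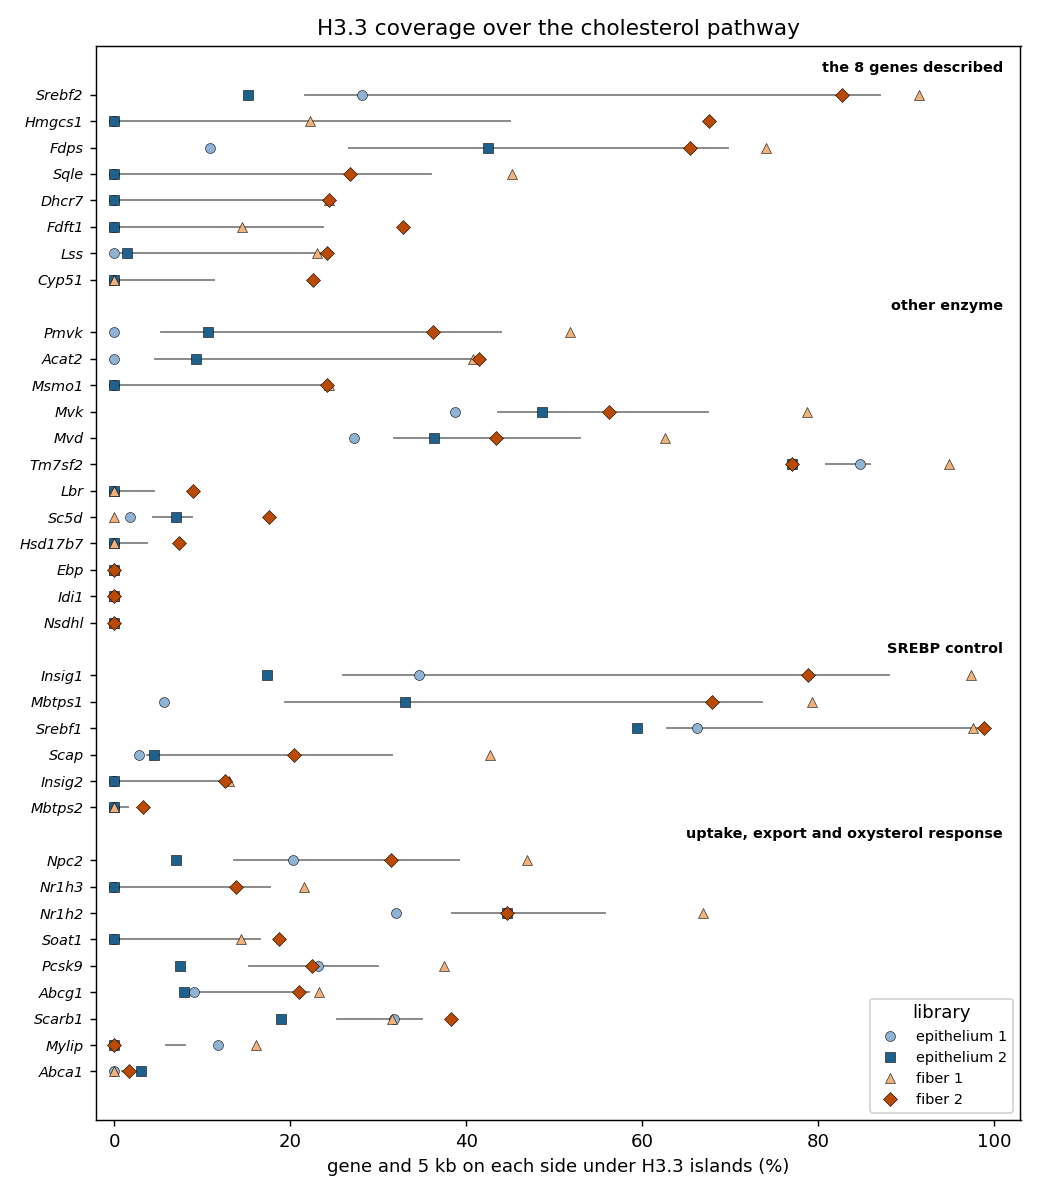
Covered share of the window (horizontal axis, percent) for the 8 cholesterol genes and 27 other genes of the pathway in 3 lists, with 1 symbol per library and a grey line from the epithelium mean to the fiber mean. In each list fiber symbols mostly lie to the right, and Idi1, Nsdhl and Ebp have all 4 symbols at 0.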

How the data were processed

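The 4 H3.3 ChIP-seq libraries, 2 of lens epithelium and 2 of lens fibers, were used. The authors mapped 75-nt single-end reads with BWA to mm10 and called islands per library with SICER2 (window 200 bp, gap 600 bp, false discovery rate 0.01, as named with the deposited files). The deposited lists give island positions and the count of ChIP reads in each, which the authors did not normalize. Whether duplicates were removed and whether the pooled input served as control are not given in the sources used here. Totals are 1331369 to 5359085 reads in islands per library. They are not sequencing depth, and no interval was computed.

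Covered base pairs, the longest island and reads per kb were computed per gene and library with GENCODE vM21 gene bodies and 5 kb flanks, in Python 3.11.15 with numpy 2.4.6, pandas 2.3.3, numba 0.67.0 and matplotlib 3.10.9. Groups followed the labels. The members and gene lists were chosen with earlier results of these data known, and 6 listed genes outside the 8 members are not reported here and are left out of the counts. Of the other pathway lists, the text names up to 3 genes with the largest and 3 with the smallest difference, all without islands, and the 3 most like the mean of the 8 genes. Promoter and microRNA sequences are from RefSeq (GRCm38.p6). As a check of the counting, islands were simulated over 719 genes of chromosome 19. For 200 of them the whole window was set under an island in fibers and under none in epithelium, and all 200 were called. Smaller differences were not planted, so the check does not show how they would be called. Alternatives changed the window, the island threshold, the number of islands, the overlap, the libraries, the pairing, the background and the scaling. The bisulfite libraries and the input were not analysed here.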

Additional observations from a re-analysis of the deposited data

How the results depend on the processing

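With the gene body alone, islands of at least 600 bp, islands lying at least 50% in the window, or each library left out in turn, the count of genes with more coverage in fibers stayed at 7 or 8 of 8, and with 5 kb around the start it was 5. The shares of all protein-coding genes called beside these were 38.4% with the body alone, 45.0% with 600 bp, 41.1% with 50%, 47.7% to 54.7% with a library left out and 33.8% around the start. Leaving out each library gave 7 to 8 genes for coverage and for the longest island and 4 to 5 for the start. For the longest island and the start, the shares of all protein-coding genes were 46.5% to 53.7% and 19.4% to 24.0%. The mean difference was 30.7 to 37.2 points, and 15 to 19 of the 27 other pathway genes were higher in fibers, against 14 with all libraries. Reads per kb gave 1 to 2 genes, the latter without epithelium replicate 1, when 3 genes could be compared. Keeping islands of at least the median reads per kb of the library gave 6 genes for coverage and 6 for the longest island. The shares of all protein-coding genes were 30.9% and 31.6%. Fdft1 no longer counted as higher in fibers, with a difference of 2.70 points. The same setting gave 1 gene for the start, 24.5 points (8.60 over all protein-coding genes), 0 of 1 for reads per kb and 8 other pathway genes. Taking 10389 islands from every library by reads per kb gave 1 gene for coverage, 1 for the longest island, 0 for the start, 11.4 points and 5 other pathway genes (15.6%). Taking them by read count gave 3 for coverage, 4 for the longest island, 1 for the start, 17.0 points and 6 other pathway genes (21.4%), and the difference at Lss turned to -0.76 points, since its epithelium island was kept and its fiber islands were not. In both cases fewer fiber islands enter by construction. Reads per kb gave 0 of 1 around the start and 0 of 2 by the densest island. The cause of these changes in reads per kb was not tested. Same-numbered libraries did not pair (correlation of deviations 0.00635 over 14147 genes). A replicate block of same-numbered differences gave 7 genes for coverage and 7 for the longest island, against 47.0% and 46.8% of all protein-coding genes. The block gave 1 gene for reads per kb, a mean of 33.9 points and 15 other pathway genes, changing no other call. The share of genes higher in fibers was 27.7% over all 55413 annotated genes and, in a background added after seeing the data, 48.1% over 10767 protein-coding genes within the length range of the 8 genes and 69.2% of those with an island. Any RefSeq start, also added, gave 3 of 5 genes. The share of all genes under this rule was not computed, so no more is read from the count. The window, overlap and block alternatives were not run for the start, which is a single base. Unknown depth limits every statement on a missing island.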

Other observations

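Islands were scarce on the X chromosome in all 4 libraries, and the cholesterol pathway genes there shared this. Of 948 protein-coding genes on the X chromosome, 0.211% and 0.316% had an island in the epithelium libraries, against 1.69% and 5.17% in the fiber libraries. Among the 19 autosomes the lowest shares were 16.9% and 21.8% in the epithelium libraries, on chromosome 13, and 45.2% and 49.1% in the fiber libraries, on chromosome 14. The X-linked genes of the lists were Nsdhl and Ebp, with no island, and Mbtps2, with an island in fiber replicate 2 alone, whereas Idi1, the other enzyme gene without an island, is autosomal. The cause was not tested. Chromosome X was examined after the values of these genes had been seen.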
